A study of Homo sapiens with 12 samples.

Results

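Metallothioneins are small, cysteine-rich proteins that bind zinc and copper, and MTF1 is the zinc-sensing transcription factor that switches their genes on. The 8 genes described here were taken by symbol from a count table of 28278 genes, and comprised the metallothioneins MT1E, MT1F, MT1G, MT1H, MT1M, MT1X and MT2A together with MTF1. RNA was poly(A)-selected and sequenced in bulk from cells labelled OVCAR3, an ovarian cancer line, and CCL218, a colorectal cancer line. In each line, HCQ-evolved cells had received 15 pulses of hydroxychloroquine (HCQ, a lysosomotropic drug that blocks autophagy) of 48 h each, and then grew for 7 days without drug before collection at passage 15. Control cells of both lines were grown on a plate of their own without HCQ and collected at passage 19. Wells of each plate were combined by position into a left (L), middle (M) and right (R) pool, which gave 3 pools in each of 4 groups and 12 libraries in all. All pools of a group came from 1 plate, so the plate, the passage number and the HCQ treatment cannot be told apart, and p-values measured the spread between pools of a plate.

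When free zinc rises, MTF1 enters the nucleus and binds metal response elements, short motifs in metallothionein promoters. The metallothioneins made in this way hold the metal, and the zinc exporter SLC30A1, another MTF1 target, moves it out of the cell. Metallothionein genes are also known to respond to glucocorticoids and to oxidative stress. In intestinal epithelium they buffer zinc taken up from food.

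The 12 libraries held 31147822 to 59965861 counts. Levels are given as CPM, which are counts divided by library size and scaled with TMM factors, and 3 counts, the floor of detection used here, corresponded to 0.0501 to 0.0942 CPM. In libraries labelled OVCAR3, the Mullerian marker SOX17 had 0 counts in each pool, ESR1 and EMX2 had at most 2 counts, and WT1 averaged 0.296 CPM in controls. PAX8 (12.01 CPM) and MUC16 (22.4 CPM) were present, but so were the intestinal genes VIL1 (241 CPM), LGALS4 (730 CPM) and CDX2 (10.9 CPM). The markers thus went against an ovarian label, and no gene separated the lines by the rule of at least 5 CPM in all libraries of one and at most 1 CPM in all of the other (0 genes). The group names used here are therefore labels. The summed level of 7 fibroblast, blood and endothelial markers was at most 5.26 CPM in any library. The summed level of 8 colorectal markers was 903 to 1117 CPM in control OVCAR3, 217 to 644 CPM in HCQ-evolved OVCAR3, 1091 to 1584 CPM in control CCL218 and 1092 to 1145 CPM in HCQ-evolved CCL218. That of 8 ovarian and Mullerian markers was 43.97 to 69.9, 42.01 to 65.1, 62.9 to 123.9 and 103.8 to 144.5 CPM in the same order, and SOX17, ESR1 and EMX2 stayed at or under the floor. The part of these markers in the results on the 8 genes was not tested.

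All 7 metallothionein genes lie in one cluster on chromosome 16 (hg38, GENCODE 44). MT2A is at chr16:56608584-56609497, MT1E at chr16:56625475-56627112, MT1M at chr16:56632659-56633981, MT1F at chr16:56657731-56660698, MT1H at chr16:56669814-56671129 and MT1X at chr16:56682470-56684196, all on the plus strand. MT1G, at chr16:56666730-56668065, is on the minus strand. MTF1 is at chr1:37809574-37859592 on the minus strand. The transcripts of MT1F, MT1G, MT1H, MT1M, MT1X and MT2A have 3 exons and 397 to 425 nt, the transcript of MT1E has 746 nt, and that of MTF1 has 11 exons and 7937 nt.

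Promoter sequences from RefSeq (GRCh38.p14) were available for MT1H, MT1X, MT2A and MTF1 among the 8 genes. They were searched on both strands for the core of the metal response element, written TGCACNC or TGCGCNC, where N is any base. The cores differ at the fourth base, so no stretch of a strand matches both. The window ran from 250 bases before to 50 after the start site. It held 4 cores in MT1X, 8 in MT2A, 8 in MT1H and 0 in MTF1. Of 35116 promoters of the same length, 0.601% held at least 4 cores, 0.0199% held at least 8, and 29.6% held at least 1. The 250 bases before the start site are printed 5′ to 3′ for the gene whose change passed the test (MT1X), for its most abundant neighbour with an entry (MT2A), and for a gene with as many cores and no counts (MT1H). They cover chr16:56682220-56682469, chr16:56608334-56608583 and chr16:56669564-56669813, all on the plus strand, and capitals mark the cores.
MT1X: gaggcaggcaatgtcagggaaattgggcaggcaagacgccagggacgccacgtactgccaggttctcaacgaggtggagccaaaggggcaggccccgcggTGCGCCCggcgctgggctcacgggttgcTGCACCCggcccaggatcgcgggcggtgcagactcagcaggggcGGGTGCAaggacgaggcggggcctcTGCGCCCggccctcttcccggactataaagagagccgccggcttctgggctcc
MT2A: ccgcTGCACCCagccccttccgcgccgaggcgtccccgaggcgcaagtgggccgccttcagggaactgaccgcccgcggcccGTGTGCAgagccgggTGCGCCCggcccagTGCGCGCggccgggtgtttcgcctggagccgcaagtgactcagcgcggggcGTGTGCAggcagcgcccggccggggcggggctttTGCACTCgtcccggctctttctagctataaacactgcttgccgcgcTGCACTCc
MT1H: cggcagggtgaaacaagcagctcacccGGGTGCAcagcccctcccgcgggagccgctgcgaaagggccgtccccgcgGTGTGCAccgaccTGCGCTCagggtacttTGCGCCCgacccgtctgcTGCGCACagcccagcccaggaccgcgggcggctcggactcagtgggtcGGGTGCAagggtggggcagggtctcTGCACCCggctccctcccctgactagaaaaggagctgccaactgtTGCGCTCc
In MT1X the cores started 150, 122, 78 and 53 bases before the start site. MT2A held 7 of its cores before the start site and 1 after it. A match is a description of the letters and not a measured binding site.

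Expression was spread unevenly over the family, and 4 of the 8 genes were expressed highly enough to be tested. MT1H had 0 counts in all 12 libraries, although its promoter held as many cores as that of MT2A. MT1G had at most 3 counts and MT1M at most 2 counts in any library, so neither rose above the floor. MT1F had 3 to 39 counts, at 0.0640 to 1.01 CPM, and did not reach the filter of at least 1 CPM in at least 3 libraries. Its pool L was the highest of each group, at 1.01 CPM in control OVCAR3, 0.611 CPM in HCQ-evolved OVCAR3, 0.590 CPM in control CCL218 and 0.739 CPM in HCQ-evolved CCL218. MT1E, MT1X, MT2A and MTF1 passed the filter in each comparison. Of 10 further metallothionein genes and pseudogenes, 9 had a row in the table and each of these had at most 6 counts in any library.

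Among the expressed metallothioneins, levels were compared per kilobase of transcript. In control OVCAR3, MT1E (8.67 ± 5.59 CPM per kb) and MT2A (8.38 ± 4.89 CPM per kb) were within the spread of each other (mean ± SD, n = 3 here and throughout). MT1X followed at 2.85 ± 0.940 CPM per kb, then MTF1 at 1.97 ± 0.532 CPM per kb and MT1F at 1.198 ± 1.03 CPM per kb. In HCQ-evolved OVCAR3 the order began with MT1E (13.8 ± 7.13 CPM per kb) and MT2A (13.5 ± 8.09 CPM per kb), again within the spread. In control CCL218 the mean of MTF1 was 3.45 ± 1.13 CPM per kb and that of MT2A 2.37 ± 0.769, MT1E at 1.36 ± 0.788, MT1F at 0.615 ± 0.674 and MT1X at 0.412 ± 0.0866 CPM per kb. In both control groups the mean ± SD ranges of neighbours in the order overlapped, and in control CCL218 pool L MT2A (3.25 CPM per kb) and MT1E (2.27 CPM per kb) were above MTF1 (2.20 CPM per kb). In HCQ-evolved CCL218, MT2A (4.73 ± 1.85 CPM per kb), MT1E (4.44 ± 1.31), MTF1 (3.54 ± 0.620) and MT1X (3.07 ± 0.691) lay within the spread of their neighbours in that order, and MT1F was at 0.945 ± 0.697 CPM per kb.

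**Figure D1:**
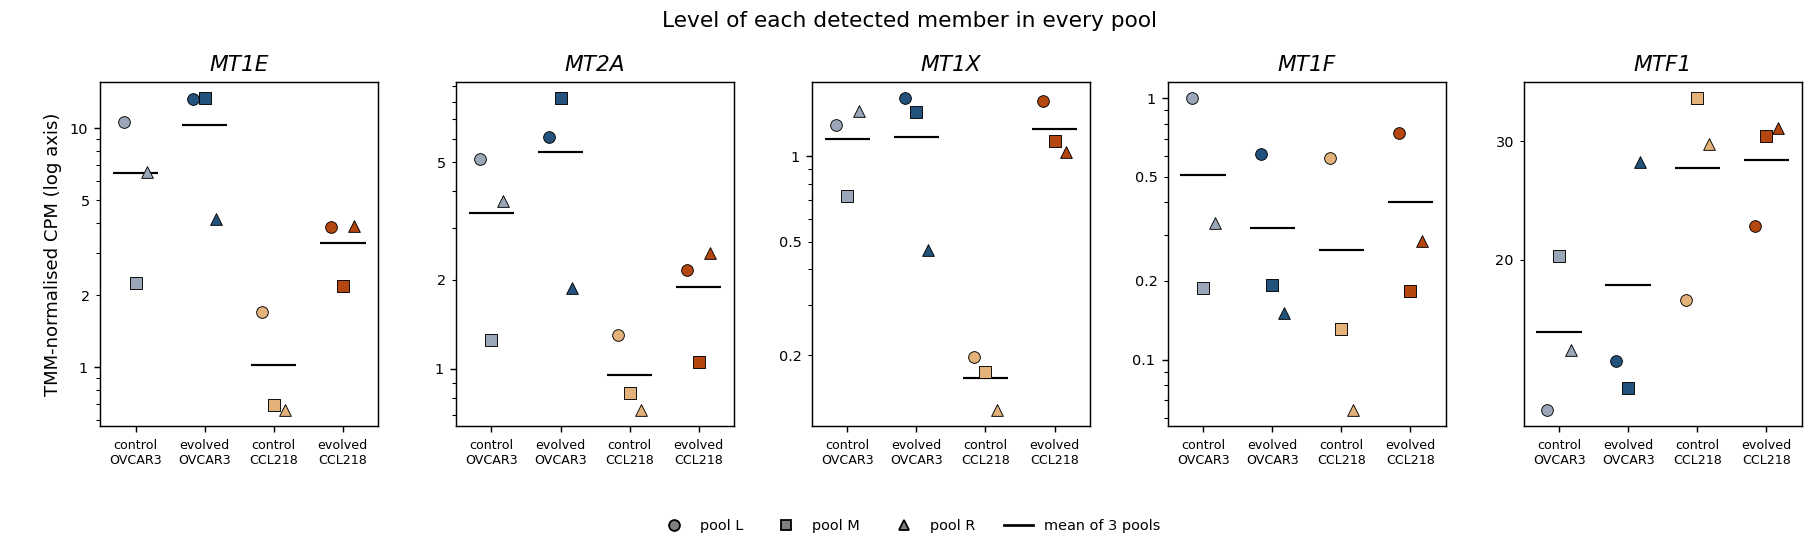
TMM-normalised CPM (log axis) of the 5 genes above the floor in most libraries, for each of the 12 pools by group, with pool position as the symbol and a bar at the mean of 3 pools. The MT1X pools of HCQ-evolved CCL218 lie at 1.04 to 1.56 CPM, above the control CCL218 pools at 0.128 to 0.197 CPM, and the OVCAR3 groups overlap for every gene.

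The first question was whether HCQ-evolved CCL218 cells had other metallothionein levels than their controls. MT1X rose in them, and this was the metallothionein change that passed the test. MT1X was at 0.197, 0.174 and 0.128 CPM in control pools L, M and R, from 8, 8 and 6 counts. It was at 1.56, 1.13 and 1.04 CPM in HCQ-evolved pools L, M and R, from 76, 62 and 62 counts. The groups did not overlap, as in 18.6% of tested genes in that direction. The lowest HCQ-evolved pool was well above the highest control pool. The log2 fold change was 2.88 with a standard error (SE) of 0.336 and a 95% interval of 2.10 to 3.67, which is a 7.38-fold rise (adjusted p = 0.00553, edgeR quasi-likelihood F test, Benjamini-Hochberg over 12241 genes). In bulk RNA, more cells that make MT1X and more MT1X RNA per cell cannot be told apart. In CCL218, 3.82% of tested genes were called higher, 2.64% lower and 6.46% in either direction, and 1 of the 4 tested members was called. At an unadjusted p under 0.05 the members numbered 3, where 25.2% of tested genes passed. With plate position as a block, 957 genes were called higher and 787 lower, against 468 and 323 without it, and 2 members were called.

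MT1X reached 1 CPM in CCL218 through the HCQ-evolved pools alone, so it could be tested there because it was high in them. Without any filter its log2 fold change was 2.92 (SE 0.410, adjusted p = 0.000955, edgeR). Leaving out a control pool gave 2.72 to 3.004 with adjusted p of 0.000629 to 0.0382. Leaving out HCQ-evolved pool L, M or R without a filter, a choice made after seeing the data, gave 2.73, 2.98 and 3.02 with adjusted p of 0.00685, 0.00341 and 0.00280. Of windows of 50 nt along the MT1X transcript, 51.0% occur in other genes, most of them metallothionein genes and pseudogenes, against 6.67% of windows of 150 nt. How reads of such windows were assigned was not stated, so the MT1X counts are uncertain to that extent.

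MT1E, which had the most counts of the 7 metallothioneins in 10 of the 12 libraries, was at 1.70, 0.696 and 0.661 CPM in control CCL218 pools L, M and R. It was at 3.86, 2.19 and 3.89 CPM in HCQ-evolved CCL218 pools L, M and R. Each HCQ-evolved pool was above each control pool, as in 18.6% of all tested genes in that direction and 36.0% in either direction. The log2 fold change of MT1E was 1.71 (SE 0.433, 95% interval 0.69 to 2.72), and it did not pass the test (adjusted p = 0.0641, edgeR). With the block, MT1E was called (log2 fold change 1.77, SE 0.321, adjusted p = 0.00831). It was also called without control pool L (2.27, adjusted p = 0.000853), and over 8 other settings its adjusted p ranged from 0.00184 to 0.144, below 0.05 in 5 of them.

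MT2A is the most widely expressed human metallothionein. It was at 1.30, 0.827 and 0.725 CPM in control CCL218 pools and at 2.16, 1.06 and 2.47 CPM in HCQ-evolved pools L, M and R. HCQ-evolved pool M lay below control pool L, so the groups overlapped. Its log2 fold change was 0.996 (SE 0.392, 95% interval 0.07 to 1.92, adjusted p = 0.172, edgeR). MT2A was called without control pool L (1.28, adjusted p = 0.0307) and with a length and GC offset (1.33, adjusted p = 0.0357). MT1E and MT2A reached 1 CPM in the HCQ-evolved pools and in control pool L.

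MTF1 was at 17.5, 34.9 and 29.8 CPM in control CCL218 pools and at 22.5, 30.5 and 31.4 CPM in HCQ-evolved pools L, M and R. The groups overlapped across almost their whole range. The log2 fold change of MTF1 was 0.04 (SE 0.266, 95% interval -0.59 to 0.66, adjusted p = 0.942, edgeR), and its sign turned under some settings. The median log2 fold change over all tested genes was -0.02.

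**Figure D2:**
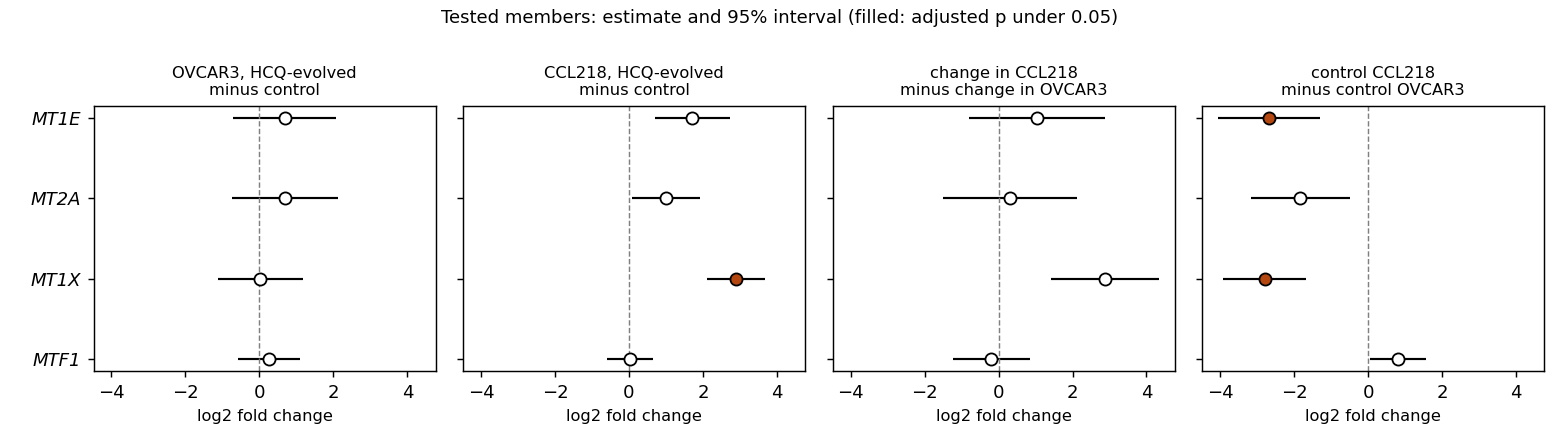
Log2 fold change (x axis) of the 4 tested members in 4 comparisons, with points at the edgeR estimate, lines for the 95% interval and filled points for an adjusted p under 0.05. MT1X is filled in CCL218 at 2.88, and MT1X and MT1E are filled in the comparison of control pools at -2.79 and -2.68.

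The CCL218 pools also differed in intestinal genes. CDX2, a homeobox factor of intestinal identity, rose from 23.2 ± 2.85 to 67.8 ± 4.85 CPM (log2 fold change 1.54, adjusted p = 0.00275, edgeR). CDH17, an intestinal cadherin, rose from 3.84 ± 1.26 to 52.5 ± 6.66 CPM, and GPA33, a colonic surface antigen, rose from 4.77 ± 0.834 to 34.7 ± 2.22 CPM. These were 3 of the 8 colorectal markers listed, 5 of which were tested, where 3.82% of all tested genes were called higher. The other tested markers did not pass, with a log2 fold change of -0.42 for LGALS4 (adjusted p = 0.245, edgeR) and -0.02 for VIL1 (adjusted p = 0.924). The HCQ-evolved pools of LGALS4 all lay below the controls, as in 17.3% of tested genes. KRT20 had at most 4 counts throughout.

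The same question in OVCAR3 gave no called member, 0 of 4, where 0.647% of tested genes were called higher, 1.21% lower and 1.86% in either direction. At an unadjusted p under 0.05 the number of members was also 0, beside 16.2% of tested genes, and DESeq2 called 0. The pools overlapped for each tested member, while 25.7% of tested genes had pools that did not overlap. MT1E was at 10.6, 2.26 and 6.55 CPM in control OVCAR3 pools L, M and R and at 13.3, 13.4 and 4.15 CPM in HCQ-evolved pools. HCQ-evolved pools L and M were the highest, but pool R lay below control pools L and R. The log2 fold change of MT1E was 0.69 (SE 0.596, 95% interval -0.70 to 2.08, adjusted p = 0.624, edgeR). MT2A was at 5.13, 1.26 and 3.70 CPM in control pools and at 6.08, 8.26 and 1.87 CPM in HCQ-evolved pools L, M and R, with a log2 fold change of 0.69 (SE 0.617, 95% interval -0.74 to 2.13, adjusted p = 0.632). It had the same outlying pools as MT1E.

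MT1X in OVCAR3 was at 1.29, 0.722 and 1.44 CPM in control pools and at 1.61, 1.43 and 0.469 CPM in HCQ-evolved pools L, M and R. The mean levels were 1.15 ± 0.380 and 1.17 ± 0.612 CPM. Its log2 fold change was 0.02 (SE 0.492, 95% interval -1.13 to 1.17, adjusted p = 0.992, edgeR), and this interval lies below the CCL218 estimate. MTF1 was at 11.96, 20.3 and 14.7 CPM in control OVCAR3 pools and at 14.2, 12.9 and 28.0 CPM in HCQ-evolved pools L, M and R. The high MTF1 pools, control M and HCQ-evolved R, were the low pools of the metallothioneins. The log2 fold change of MTF1 was 0.25 (SE 0.362, 95% interval -0.59 to 1.095, adjusted p = 0.780, edgeR).

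The same pools stood apart in a measure of transcript length. For each library, the deviation of each gene from the mean of its line was ranked against transcript length across genes. Spearman's rho was 0.523 in control OVCAR3 pool M and 0.556 in HCQ-evolved OVCAR3 pool R, and between -0.433 and -0.354 in the other OVCAR3 pools. The metallothionein transcripts are among the shortest, since only 0.467% of tested genes are shorter than MT1X and 3.55% shorter than MT1E, and MTF1 is among the longest, with 91.6% of tested genes shorter. The trend fitted to length and GC content for MT1E was -0.33 in control pool M and -0.56 in HCQ-evolved pool R on the log2 scale, while for MTF1 it was 0.30 and 0.50. Without both libraries, a choice made after seeing the data, the log2 fold change was 0.66 for MT1E (SE 0.233, adjusted p = 0.135) and 0.72 for MT2A (SE 0.244, adjusted p = 0.125), and neither passed. With the length and GC offset and all OVCAR3 libraries it was 0.85 for MT1E (SE 0.390, adjusted p = 0.217).

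In CCL218 the length measure was -0.505, 0.462 and 0.040 in control pools L, M and R and -0.212, 0.295 and 0.459 in HCQ-evolved pools L, M and R. Both groups thus held pools of either sign. The trend fitted for MT1X on the log2 scale was 0.60, -0.16 and -0.06 in control pools L, M and R and 0.00066, -0.18 and -0.19 in HCQ-evolved pools L, M and R. With the length and GC offset the MT1X log2 fold change was 3.13 (SE 0.310, adjusted p = 0.00130, edgeR).

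**Figure D3:**
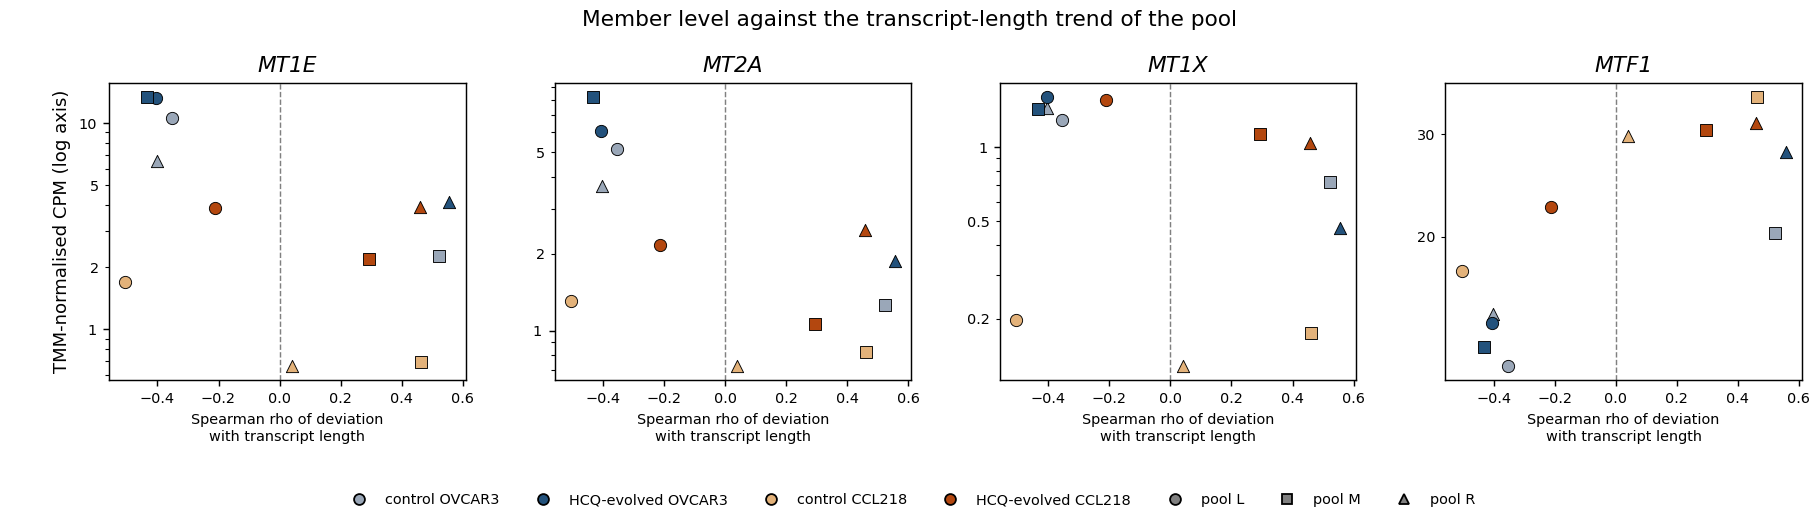
TMM-normalised CPM (y axis, log) of MT1E, MT2A, MT1X and MTF1 in the 12 pools against the Spearman rho of each pool's deviation with transcript length (x axis), coloured by group. In OVCAR3 the pools at 0.523 and 0.556 are the lowest of their group for MT1E, MT2A and MT1X and the highest for MTF1, and the control CCL218 pools are low for MT1X at both ends of the axis.

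Shares within the family do not depend on the scaling of libraries. MT1E took 38.1% to 62.5% of the counts of the 7 metallothioneins in a pool. MT1X took 5.10% of 157 counts, 9.52% of 84 counts and 8.11% of 74 counts in control CCL218 pools L, M and R, with exact 95% binomial intervals of 2.23% to 9.79%, 4.202% to 17.9% and 3.03% to 16.8%. In HCQ-evolved CCL218 pools L, M and R it took 18.8% of 405 counts, 24.5% of 253 and 13.5% of 460, with intervals of 15.1% to 22.9%, 19.3% to 30.3% and 10.5% to 16.9%. Each HCQ-evolved pool was above each control pool in this share. The share of MT2A went the other way, from 33.8%, 45.2% and 45.9% in control pools to 25.9%, 22.9% and 32.2% in HCQ-evolved pools. Shares in a pool have a fixed sum, so a larger share of one gene leaves less for the others. The level of MT2A did not fall, with a log2 fold change of 0.996 that did not pass the test. The MT1X share rests on the same counts as the MT1X test and is not separate support for it. In OVCAR3 the share of MT1X was 7.14%, 16.1% and 12% in control pools and 7.44%, 6.12% and 7.05% in HCQ-evolved pools, so these groups overlapped. The intervals cover counting error only and treat each count as an independent read. If both mates of a pair were counted, they are too narrow even for that.

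**Figure D4:**
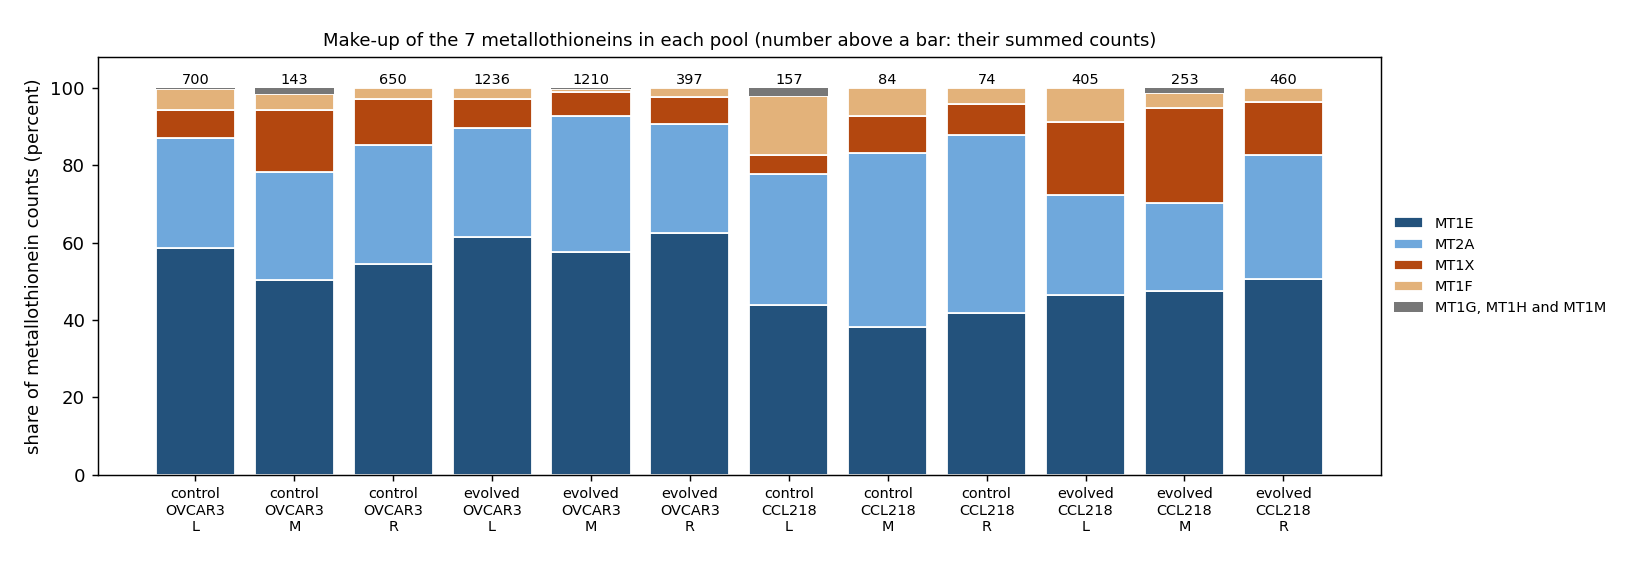
Share of the counts of the 7 metallothioneins (y axis, percent) taken by each gene in each of the 12 pools, with the summed counts above each bar. MT1X takes 13.5% to 24.5% in the HCQ-evolved CCL218 pools and 5.10% to 9.52% in the control CCL218 pools.

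The design allowed a test of whether the change differed between lines. The MT1X change was larger in CCL218 than in OVCAR3 by 2.88 on the log2 scale (SE 0.667, 95% interval 1.42 to 4.35), but this difference did not pass the test (adjusted p = 0.0841, edgeR interaction over 12613 genes). In that comparison 0.690% of tested genes were called higher, 0.182% lower and 0.872% in either direction, and 0 of the 4 tested members. At an unadjusted p under 0.05 the number of members was 1, MT1X, where 9.11% of tested genes passed. DESeq2 called MT1X (adjusted p = 0.00378), as did the length and GC offset (adjusted p = 0.00556), the fit without both long-transcript libraries (adjusted p = 0.0167) and the fit without HCQ-evolved OVCAR3 pool R (adjusted p = 0.0325). It was not called in the other 4 settings or in the other 11 fits without one library, with adjusted p of up to 0.253. The difference was 1.04 for MT1E (SE 0.835, adjusted p = 0.931), 0.32 for MT2A (SE 0.826, adjusted p = 0.999) and -0.19 for MTF1 (SE 0.477, adjusted p = 0.999).

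The control pools of the lines, grown in parallel with the HCQ-evolved cells, were compared next. Control CCL218 had less MT1X and MT1E than control OVCAR3. The log2 difference was -2.79 for MT1X (SE 0.514, 95% interval -3.92 to -1.67, adjusted p = 0.0120, edgeR) and -2.68 for MT1E (SE 0.631, 95% interval -4.06 to -1.29, adjusted p = 0.0418). These were 2 of 4 tested members, where 2.07% of tested genes were called lower, 1.35% higher and 3.42% in either direction. For MT2A the log2 difference was -1.83 (SE 0.610, adjusted p = 0.165) and for MTF1 it was 0.81 (SE 0.340, adjusted p = 0.301), and neither passed. DESeq2 called MT2A as well (-1.82, adjusted p = 0.0274). MT1X was at 0.722 to 1.44 CPM in the control pools of OVCAR3 and at 0.128 to 0.197 CPM in those of CCL218. The mean of HCQ-evolved CCL218, at 1.24 ± 0.279 CPM, was within the range of control OVCAR3, while its pool L, at 1.56 CPM, was above that range. With single libraries left out, the MT1X call was lost without control OVCAR3 pool R (adjusted p = 0.0568), control CCL218 pool M (0.0595) or control CCL218 pool R (0.0712), and the MT1E call without control OVCAR3 pool L (0.165) or R (0.123) or control CCL218 pool M (0.192) or R (0.201).

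Zinc transporters were the next group. SLC30A1, the exporter of the plasma membrane and an MTF1 target, rose in CCL218. It was at 18.0, 30.3 and 32.5 CPM in control pools L, M and R and at 62.4, 67.0 and 61.0 CPM in HCQ-evolved pools. The HCQ-evolved pools lay close together and above each control pool, as in 18.6% of tested genes in that direction. The log2 fold change of SLC30A1 was 1.23 (SE 0.225, 95% interval 0.71 to 1.76, adjusted p = 0.0248, edgeR). The call was lost without control CCL218 pool R (adjusted p = 0.0653) or HCQ-evolved pool L, M or R (0.111, 0.145 and 0.1096). In OVCAR3, SLC30A1 was at 24.5, 41.2 and 42.6 CPM in control pools and at 51.5, 62.1 and 67.7 CPM in HCQ-evolved pools. These groups did not overlap, as in 13.0% of tested genes in that direction, but the log2 fold change of 0.76 (SE 0.266, 95% interval 0.14 to 1.38) did not pass (adjusted p = 0.212). The difference of the SLC30A1 change between lines was 0.49 (SE 0.352, adjusted p = 0.880). Of the 10 SLC30 genes listed, 5 were tested, 1 rose in CCL218 and 0 were called in OVCAR3. Of all tested genes, 3.82% were called higher and 6.46% in either direction in CCL218, and 1.86% in either direction in OVCAR3. In OVCAR3, 1 had an unadjusted p under 0.05, beside 16.2% of tested genes, and in CCL218 1 had, beside 25.2%.

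Among importers of the SLC39 family, which bring zinc into the cytosol, SLC39A8 fell in CCL218. It was at 27.6, 27.4 and 29.8 CPM in control pools and at 11.8, 14.8 and 14.1 CPM in HCQ-evolved pools L, M and R. No pool overlapped, as in 17.3% of tested genes in that direction. The log2 fold change of SLC39A8 was -1.06 (SE 0.137, 95% interval -1.38 to -0.74, adjusted p = 0.00733, edgeR). Without control pool R or one of HCQ-evolved pools L, M and R its adjusted p was 0.0504 to 0.0576. In OVCAR3, SLC39A8 was at 41.7, 35.6 and 41.5 CPM in control pools and at 39.4, 37.8 and 58.8 CPM in HCQ-evolved pools (log2 fold change 0.22, SE 0.230, adjusted p = 0.692). SLC39A11 had the smallest p of the family in OVCAR3, with a log2 fold change of 0.39 (SE 0.179, adjusted p = 0.345). Of 14 SLC39 genes listed, 11 were tested, 1 fell in CCL218 and 0 were called in OVCAR3. Of all tested genes, 2.64% were called lower and 6.46% in either direction in CCL218, and 1.86% in either direction in OVCAR3. In OVCAR3, 0 had an unadjusted p under 0.05, beside 16.2% of tested genes, and in CCL218 2 had, beside 25.2%. The median log2 fold change was 0.20 over these 11 genes in CCL218 and -0.16 in OVCAR3.

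**Figure D5:**
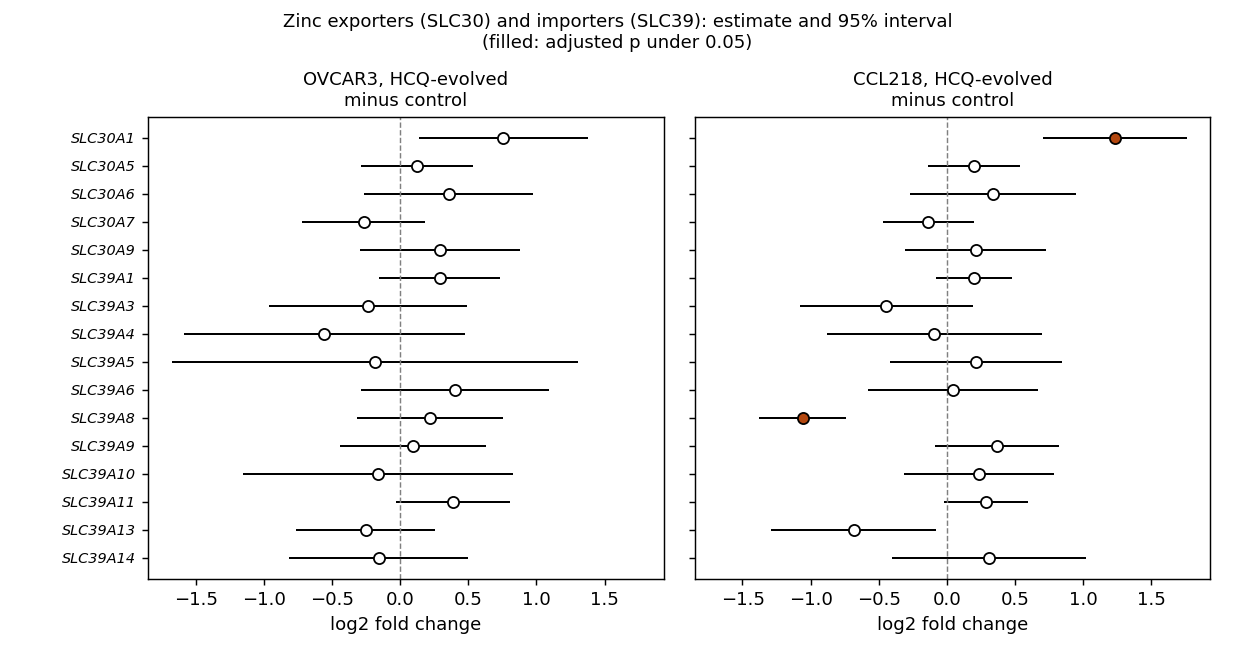
Log2 fold change (x axis) of the 16 tested zinc exporters (SLC30) and importers (SLC39) in each line, with points at the edgeR estimate, lines for the 95% interval and filled points for an adjusted p under 0.05. The filled points are SLC30A1 at 1.23 and SLC39A8 at -1.06, both in CCL218.

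Copper handling genes were listed because metallothioneins also bind copper. Of 13, 11 were tested and 0 were called in either line. At an unadjusted p under 0.05 there were 1 in OVCAR3 and 3 in CCL218, where 16.2% and 25.2% of tested genes passed. Their median log2 fold change was -0.06 in OVCAR3 and -0.15 in CCL218. ATP7B, a copper-exporting ATPase, had the smallest p in both. It was at 13.4, 18.2 and 13.4 CPM in control OVCAR3 pools and at 9.80, 10.4 and 10.9 CPM in HCQ-evolved OVCAR3 pools (log2 fold change -0.52, SE 0.207, adjusted p = 0.269, edgeR). In CCL218 it was at 14.9, 21.4 and 17.1 CPM in control pools and at 26.5, 29.0 and 28.1 CPM in HCQ-evolved pools (0.64, SE 0.1598, adjusted p = 0.0595). With the block for plate position the ATP7B change in CCL218 was called (0.66, adjusted p = 0.0220), as it was by DESeq2 (0.64, adjusted p = 0.00545). Pools did not overlap in either line, as in 12.7% of tested genes for lower values in OVCAR3 and 18.6% for higher values in CCL218.

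Genes induced by metals and oxidants, 10 in the list and all tested, gave 1 call, in OVCAR3. All tested genes called in either direction were 1.86% in OVCAR3 and 6.46% in CCL218. At an unadjusted p under 0.05 the list had 2 genes in OVCAR3 and 3 in CCL218, where 16.2% and 25.2% of tested genes passed. GCLM, a subunit of the enzyme that starts glutathione synthesis, rose in OVCAR3 from 15.6, 19.1 and 20.6 CPM in control pools to 36.7, 37.7 and 51.7 CPM in HCQ-evolved pools L, M and R. The HCQ-evolved pools of GCLM were all above the controls, as in 13.0% of tested genes. Its log2 fold change was 1.21 (SE 0.228, 95% interval 0.68 to 1.74, adjusted p = 0.0484, edgeR). The call was lost without each OVCAR3 pool but HCQ-evolved R, with adjusted p of 0.105 to 0.201. In CCL218 the GCLM change was 0.38 (SE 0.171, adjusted p = 0.219). The smallest p of this list in CCL218 belonged to PGF, a growth factor that MTF1 can act on (-0.99, SE 0.315, adjusted p = 0.112). With the block for plate position the PGF change in CCL218 was called (-0.94, adjusted p = 0.0421).

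Of 9 transcription factors known to act on metallothionein genes, 8 were tested and 0 were called in either line. At an unadjusted p under 0.05 there were 0 in OVCAR3 and 1 in CCL218, where 16.2% and 25.2% of tested genes passed. The glucocorticoid receptor NR3C1 was not tested, with at most 6 counts in any library. HSF1, the heat shock factor, had the smallest p in OVCAR3 (log2 fold change -0.35, SE 0.183, adjusted p = 0.396, edgeR), and USF1, a factor that binds E-boxes, had it in CCL218 (-0.42, SE 0.173, adjusted p = 0.184). Of 6 glucocorticoid targets, 5 were tested. An unadjusted p under 0.05 was reached by 2 in OVCAR3 and 3 in CCL218, beside the same shares of tested genes. PER1, a clock gene induced by glucocorticoids, rose in CCL218 from 18.2, 17.9 and 16.3 CPM to 26.6, 28.9 and 24.8 CPM (0.61, SE 0.126, adjusted p = 0.0345). The PER1 call was lost without each CCL218 pool but control L, with adjusted p of up to 0.208. In OVCAR3, SGK1, a kinase induced by glucocorticoids, had a log2 fold change of -0.61 (SE 0.206, adjusted p = 0.191).

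Genes that neighbour the metallothionein cluster were listed to see whether the region moved as a whole. None was called among 7 tested in OVCAR3 and 8 tested in CCL218 of 11 listed (0 genes). At an unadjusted p under 0.05 there were 1 in OVCAR3 and 4 in CCL218, where 16.2% and 25.2% of tested genes passed. The region as a whole was not tested. BBS2, a subunit of the BBSome of cilia, had a log2 fold change of 0.46 in CCL218 (SE 0.119, adjusted p = 0.0674, edgeR). This BBS2 change was called in 3 of 8 other settings and in 1 of 6 fits without one library. The median of these neighbours was 0.35 in OVCAR3 and 0.32 in CCL218.

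The pattern of MT1E over the 12 libraries was most like that of MT2A, with a Pearson correlation of 0.967 of log2 CPM, the highest of 12612 genes. MT1X followed at rank 224 with 0.847, and MTF1 was near the other end with -0.772. Outside the 8 genes, the closest were GPRC5C (0.962), CAPG (0.955), SPAG4 (0.954), LOC143666 (0.952) and C15orf48 (0.951). The libraries share the line difference and the length trend, and these values are descriptions over them. GPRC5C, an orphan receptor, was at 81.1 ± 12.96 CPM in control OVCAR3, 88.3 ± 9.46 in HCQ-evolved OVCAR3, 45.6 ± 8.25 in control CCL218 and 65.4 ± 6.24 CPM in HCQ-evolved CCL218. C15orf48 was at 0.897 ± 0.336, 1.52 ± 0.997, 0.119 ± 0.131 and 0.596 ± 0.0541 CPM in the same order of groups.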

How the data were processed

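Bulk poly(A) RNA was measured in 12 libraries of pools, 3 per group, with groups taken from the sample labels. The authors aligned reads to hg38 with STAR, removed duplicates with RmDup and deposited counts per gene from featureCounts. Strand and multi-mapping settings were not given in the sources used here. Of entries of 1 to 4 counts, 78.9% were even, so both mates of a pair may have been counted. Counts were used as deposited. The 8 genes and the gene lists were chosen with earlier results of these data known.

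Each line was fitted alone with edgeR 4.0.16 in R 4.3.3 (TMM, a minimum of 1 CPM in 3 or more libraries, robust quasi-likelihood F test in legacy mode, Benjamini-Hochberg, threshold 0.05). The difference between lines and the control comparison came from one fit of 12 libraries. The SE was the log2 fold change divided by the square root of F. Named genes were the 8 members, genes of each list with an adjusted p under 0.05 in either line and otherwise the one with the smallest p in each line, and the 5 genes most correlated with MT1E. A gene that this rule names is not reported here. Line markers were named as checks, and values of other genes at or under the floor as examples. Alternatives were other size factors, no filter, DESeq2 1.42.0, a spline of length and GC content per library as an offset, one fit of all libraries, a block for plate position and leaving out libraries. The scripts were tested on simulated data.

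Plate position could pair control and HCQ-evolved pools. After group means were removed, correlations of same-position pools in CCL218 were 0.506, 0.233 and 0.195 for L, M and R, each over 0.1, although control M correlated at 0.433 with HCQ-evolved R. They were 0.401, -0.665 and -0.478 in OVCAR3. By this criterion position paired the CCL218 pools and not the OVCAR3 pools. The main tests had no block, and blocked values are given beside the CCL218 results that they change. Transcript lengths came from GENCODE 44 for 90.7% of symbols.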

Additional observations from a re-analysis of the deposited data

Results flagged for a closer look

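Among the genes named, ATP7B and SLC39A8 changed differently in the lines by the interaction test of edgeR, and both lay at the threshold. The ATP7B change in CCL218 exceeded that in OVCAR3 by 1.18 on the log2 scale (1.1785, SE 0.241, adjusted p = 0.049998). Its HCQ-evolved pools were all above controls in CCL218, as in 18.6% of tested genes, and all below them in OVCAR3, as in 12.7%. The ATP7B difference was called in 3 of 7 other settings and in 2 of 12 fits without one library, with adjusted p of up to 0.172. The SLC39A8 change in CCL218 was lower than that in OVCAR3 by a log2 difference of -1.25 (-1.2508, SE 0.255, adjusted p = 0.049998). It was called in 4 of 7 other settings and in 2 of 12 fits without one library, with adjusted p of up to 0.1598.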

How the results depend on the processing

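The rise of MT1X in CCL218 was called in all 8 other settings and in the 3 fits without a control pool. Without an HCQ-evolved pool it did not pass the filter and was not tested, so 0 members were called, while without a filter it was called in each of these 3 fits. Of 245 alternatives for the 8 genes, 207 kept direction and side of the threshold, 7 lost the call, 14 gained it and 17 changed sign. Of 705 for the named list genes the numbers were 609, 47, 22 and 27. Causes were not tested.

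Numbers of genes called moved most. In OVCAR3, higher (79) and lower (148) calls became 243 and 306 without a filter, 542 and 563 with DESeq2, 563 and 485 with the length and GC offset, 558 and 607 in one fit of 12 libraries, and 381 and 355 without both long-transcript libraries. For plate position, whose pairing of these pools was not settled, the replicate block gave 17 and 64, or 205 and 227 with the offset. Leaving out single libraries gave 0 to 233 and 3 to 324, with 0 members called in each. In CCL218, 468 and 323 became 1104 and 1068 with DESeq2, 1254 and 1060 with the offset, 957 and 787 with the block, and 1173 and 925 with block and offset, or 72 to 1646 and 30 to 1401 without single libraries. Members called there, 1 in the report, were 2 without a filter, 2 with DESeq2, 3 with the offset, 2 with the block and 2 with both, and 0 to 3 without single libraries. For the difference between lines, 87 and 23 became 306 and 157 with DESeq2, 261 and 154 with the offset and 34 and 1 with the block, or 35 to 163 and 3 to 49 without single libraries. Members called were 1 with DESeq2, 1 with the offset, 1 without both long-transcript libraries and 0 to 1 without single libraries. For control pools, 170 and 261 became 374 and 551 with DESeq2 and 283 and 464 with the offset, or 74 to 280 and 102 to 510 without single libraries, with 0 to 2 members called without single libraries and 3 with DESeq2.

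Signs turned mostly near 0. In OVCAR3, MT1X was at -0.02 (-0.019949) with upper-quartile factors and -0.071 with the block, and SLC39A8 at -0.094 without both long-transcript libraries. MTF1 in CCL218 was at -0.031 with the offset, -0.024 with block and offset and -0.033 without filter and HCQ-evolved pool R. The difference between lines was 0.017 for MTF1 and 0.038 for SLC39A11 without both long-transcript libraries, and -0.0093 for HSF1 without a filter. For control pools, the offset gave -0.015 for ATP7B, 0.023 for HSF1 and 0.17 for USF1, and BBS2 was at 0.0026 with upper-quartile factors and 0.012 without a filter.

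Without single libraries, log2 fold changes ranged from -0.28 to 0.39 for MT1X, -0.20 to 0.49 for MTF1 and -0.029 to 0.34 for SLC39A8 in OVCAR3, and from -0.21 to 0.25 for MTF1 and -0.026 to 0.16 for SGK1 in CCL218. Differences between lines ranged from -0.105 to 0.76 for MT2A, -0.43 to 0.24 for MTF1, -0.15 to 0.020 for SLC39A11, -0.16 to 0.80 for PGF, -0.16 to 0.26 for HSF1 and -0.015 to 0.17 for BBS2. Control differences ranged from -0.20 to 0.76 for PGF, -0.21 to 0.084 for USF1 and -0.083 to 0.10 for BBS2. MT1F, MT1G, MT1H and MT1M were too low in counts to be tested, and MT1X in control CCL218 rested on 6 to 8 counts.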
